A study of Homo sapiens with 16 samples.

Results

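The cytotoxic granule genes described here are GZMA, GZMB, GZMH, GZMK, GZMM, PRF1, GNLY, NKG7, SRGN and CTSW. They were found by their symbols in the annotation of the HG-U133A array, a 1-colour Affymetrix array that reads each transcript by probe sets of short oligonucleotides. All 10 members were measured, by 12 of the 22283 probe sets, among 11963 genes tested. GNLY and SRGN had 2 probe sets each, and the one with the higher mean over all arrays stands for the gene.

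Cytotoxic T cells and natural killer (NK) cells kill by releasing secretory granules onto a target cell. Perforin, the product of PRF1, opens the target membrane, and granzymes, a family of serine proteases, enter and cut proteins that start cell death. Granzyme and perforin staining is a known feature of anaplastic large cell lymphoma (ALCL), which arises from T cells, displays CD30 and often lacks the T-cell receptor.

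The study set 4 ALCL lines (Karpas 299, FE-PD, JB6 and SU-DHL-1) beside 4 lines labelled as T-cell lymphoma or leukemia lines (Jurkat, Molt-3, Molt-4 and CCRF-CEM), and its title asks whether treated T cells come to resemble ALCL. Treated cells received 1 µM 5-aza-2′-deoxycytidine (5-aza-dC), which blocks DNA methyltransferases, for 6 days, with renewal at day 2 and day 5. In the last 24 h, 625 nM trichostatin A (TSA), which blocks histone deacetylases, was added, and both agents were always combined. The 4 groups were treated ALCL, untreated ALCL, treated T-cell and untreated T-cell lines, with n = 4 arrays each and 1 array per line and condition. All lines grew in the same RPMI medium with 10% serum at 5% CO2. The lines, not repeat cultures, are the replicates. Between types, p values rest on the spread of levels between lines. For treatment they rest on the spread between lines of the treated minus untreated changes. Molt-3 and Molt-4 are known to come from the same patient and are therefore not independent. A level in a line averages over its cells, so fewer cells with a transcript and less transcript per cell cannot be told apart.

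Values are deposited log2 levels from RMA (robust multi-array average), which ran from 3.36 to 14.4 over the whole table. They rank arrays for 1 probe set but not probe sets against each other, and no detection calls were used, so a low level is not read as absence. Among untreated lines the labels were checked with 3 markers. TNFRSF8, which encodes CD30, averaged 11.48 ± 0.53 in untreated ALCL lines and 7.82 ± 0.46 in untreated T-cell lines, and CD3E, a chain of the T-cell receptor complex, 7.62 ± 0.32 and 10.77 ± 0.14 (SD, n = 4 each). ALK, the kinase activated in many ALCL, ran from 6.39 to 11.10 in untreated ALCL lines, so the lowest lay within the 6.09 to 6.40 of untreated T-cell lines, and it was not called. In treated ALCL lines TNFRSF8 averaged 8.23 ± 0.93 (7.48 to 9.56), a range that overlaps the untreated T-cell lines. The 28S ribosomal control probe set gained between 5.46 and 7.40 log2 units on treatment in Molt-3, Molt-4 and the ALCL lines other than Karpas 299, and between -0.81 and 0.63 in Karpas 299, Jurkat and CCRF-CEM. The 3′ minus 5′ signal of ACTB ran from -0.38 to 0.70 on treated ALCL arrays against -0.65 to -0.29 on untreated ones, and from -0.21 to 0.59 on treated T-cell arrays against -0.59 to -0.34 on untreated ones. Their part in the treatment results was not tested.

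The treatment acts on DNA methylation, which sits on CpG pairs, so the CpG content of upstream sequences is given. Sequences of GZMB, PRF1, GZMA, GNLY and NKG7 are printed, from among the members for which a sequence was found. These are the 250 bases before the gene start, 5′ to 3′ on the gene's strand, from RefSeq's promoter table (GRCh38.p14), with each CpG in capitals. GZMB lies at chr14:24634191-24634440 and PRF1 at chr10:70602742-70602991, both on the minus strand. GZMA lies at chr5:55102396-55102645 and GNLY at chr2:85694108-85694357, both on the plus strand, and NKG7 at chr19:51372655-51372904 on the minus strand.
GZMB: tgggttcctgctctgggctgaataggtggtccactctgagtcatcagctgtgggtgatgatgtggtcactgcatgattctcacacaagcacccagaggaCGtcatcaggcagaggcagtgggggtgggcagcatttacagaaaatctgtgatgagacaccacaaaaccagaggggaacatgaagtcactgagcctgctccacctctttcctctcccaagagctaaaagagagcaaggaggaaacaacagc
PRF1: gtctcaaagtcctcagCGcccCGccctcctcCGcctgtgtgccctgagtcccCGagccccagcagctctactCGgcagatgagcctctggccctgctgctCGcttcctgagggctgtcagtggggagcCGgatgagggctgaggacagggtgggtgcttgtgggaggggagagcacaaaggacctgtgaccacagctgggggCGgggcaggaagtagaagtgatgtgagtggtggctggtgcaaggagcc
GZMA: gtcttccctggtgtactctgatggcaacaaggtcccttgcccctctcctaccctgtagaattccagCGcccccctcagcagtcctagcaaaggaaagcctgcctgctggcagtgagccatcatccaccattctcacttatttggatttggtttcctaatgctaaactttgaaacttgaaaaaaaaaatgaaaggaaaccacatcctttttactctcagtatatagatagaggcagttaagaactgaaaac
GNLY: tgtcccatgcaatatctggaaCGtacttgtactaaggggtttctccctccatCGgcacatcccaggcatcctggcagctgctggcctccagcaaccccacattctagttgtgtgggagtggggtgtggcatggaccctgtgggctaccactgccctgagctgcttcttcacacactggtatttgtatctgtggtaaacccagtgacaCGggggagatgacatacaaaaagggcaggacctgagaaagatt
NKG7: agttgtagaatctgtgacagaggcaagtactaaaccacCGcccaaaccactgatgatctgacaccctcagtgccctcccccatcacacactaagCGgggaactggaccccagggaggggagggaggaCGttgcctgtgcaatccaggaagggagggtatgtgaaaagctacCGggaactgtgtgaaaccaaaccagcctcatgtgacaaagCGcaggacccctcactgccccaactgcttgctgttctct

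The GZMB and GZMA windows held 1 CpG each, that of GZMH 0, GNLY 3, NKG7 5 and PRF1 8, where the median of 34943 such windows was 11. Windows were found for these 6 members, and GZMK, GZMM, SRGN and CTSW are named only. Of 3 motifs searched on both strands, TGAGTCA, the AP-1 site, was found in the GZMB window, starting 214 bases before the gene start, and 4.22% of all windows hold it. AACCACA, 1 form of the RUNX site, was found in the GZMA window, starting 55 bases before the start, and 3.65% of windows hold it. Other forms of the RUNX site were not searched, so the other windows are not read as lacking it. TTCNNNGAA, the site bound by STAT proteins, was in none of the 6 windows and is in 6.56% of all. These matches describe the letters only, and neither binding nor methylation was measured. In the RefSeq gene table GZMH lies between CTSG and GZMB on chromosome 14, and GZMK lies next to GZMA on chromosome 5.

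Before treatment, the granule genes that separated ALCL from T-cell lines were the pore former PRF1, the protease GZMB and the packing proteoglycan SRGN. Of the 10 members these 3 were higher in ALCL lines and 0 were lower (limma, adjusted p below 0.05), where 3.18% of all genes tested were called higher and 5.58% lower. The median log2 difference of the members was 0.91, and that of all genes 0.04.

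GZMB, the granzyme that cuts after aspartate and activates caspases, had levels of 10.74, 12.80, 11.95 and 11.32 in untreated FE-PD, JB6, SU-DHL-1 and then Karpas 299, against 5.31, 5.55, 4.66 and 5.24 in untreated CCRF-CEM, Jurkat, Molt-3 and then Molt-4. Every ALCL line lay more than 5 log2 units above every T-cell line. The difference was 6.52 ± 0.42 (SE), with an adjusted p of 0.000111 by limma. PRF1 had levels of 12.01, 13.40, 12.95 and 13.01 in the untreated ALCL lines, in the same order, against 6.56, 7.28, 6.61 and 6.45 in the untreated T-cell lines. FE-PD was the lowest ALCL line and Jurkat the highest T-cell line, and the groups did not overlap. Its difference was 6.12 ± 0.31 (adjusted p = 3.05e-05 by limma).

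SRGN encodes serglycin, whose sugar chains hold granzymes and perforin in the granule. It read 10.56, 11.26, 10.17 and 10.76 in untreated ALCL lines against 6.00, 7.95, 7.63 and 7.07 in untreated T-cell lines. CCRF-CEM was the lowest line. The difference was 3.53 ± 0.42 (adjusted p = 0.00248 by limma), and it was 3.79 with an adjusted p of 0.217 in Karpas 299, CCRF-CEM and Jurkat alone, where 1 ALCL line is assumed to vary like the T-cell lines. The second SRGN probe set gave means of 10.65 ± 0.45 in untreated ALCL lines and 7.01 ± 1.15 in untreated T-cell lines (SD, n = 4 each).

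GZMA and NKG7 spread widely within each cell type. GZMA, a granzyme that cuts after basic residues, had levels of 4.89, 8.05, 9.76 and 11.39 in untreated ALCL lines against 9.97, 8.12, 5.49 and 5.28 in untreated T-cell lines. Karpas 299, CCRF-CEM and SU-DHL-1 were high, and FE-PD, Molt-4 and Molt-3 were low, so both types held high and low lines. The difference was 1.31 with a 95% interval from -2.22 to 4.84 (adjusted p = 0.624 by limma). NKG7 encodes a granule membrane protein needed for granule release. Its levels were 6.61, 10.36, 11.46 and 9.58 in untreated ALCL lines against 8.38, 7.58, 5.83 and 6.08 in untreated T-cell lines. JB6, SU-DHL-1 and Karpas 299 lay above every T-cell line, while FE-PD lay among them. The difference of 2.53 ± 1.04 was not called (adjusted p = 0.176 by limma) and stayed uncalled in 16 of 18 alternatives. Leaving out FE-PD, the lowest ALCL line, gave 3.50 with an adjusted p of 0.0344.

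The other members differed by less than 1 log2 unit between untreated types. GNLY, the membrane-lytic granulysin, had levels of 6.42, 6.56, 6.13 and 6.57 in ALCL lines against 6.11, 6.11, 6.02 and 6.01 in T-cell lines. The groups did not overlap, but the difference of 0.36 ± 0.12 was not called (adjusted p = 0.106 by limma). It stayed uncalled in 16 of 17 alternatives, with adjusted p values up to 0.627. The exception left out SU-DHL-1, the lowest ALCL line, which by itself widens the gap (0.45, adjusted p = 0.0307). CTSW, a cysteine protease of cytotoxic lymphocytes, averaged 6.92 ± 0.49 in ALCL lines and 7.74 ± 0.87 in T-cell lines (SD, n = 4 each), with a difference of -0.82 ± 0.44 that was not called.

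GZMH, the chymase-like granzyme beside GZMB on chromosome 14, did not share its contrast. It averaged 5.80 ± 0.28 in untreated ALCL lines and 5.45 ± 0.08 in untreated T-cell lines (SD, n = 4 each; adjusted p = 0.188 by limma). GZMK, a trypsin-like granzyme, averaged 7.12 ± 0.19 in ALCL lines and 7.12 ± 0.12 in T-cell lines (SD, n = 4 each), and the 95% interval of its difference ran from -0.29 to 0.28. GZMM, which cuts after methionine and leucine, had 1 high line in each type. It read 8.68 in FE-PD and between 5.87 and 6.13 in the other ALCL lines, against 6.97 in CCRF-CEM and between 5.80 and 5.98 in the other T-cell lines.

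**Figure D1:**
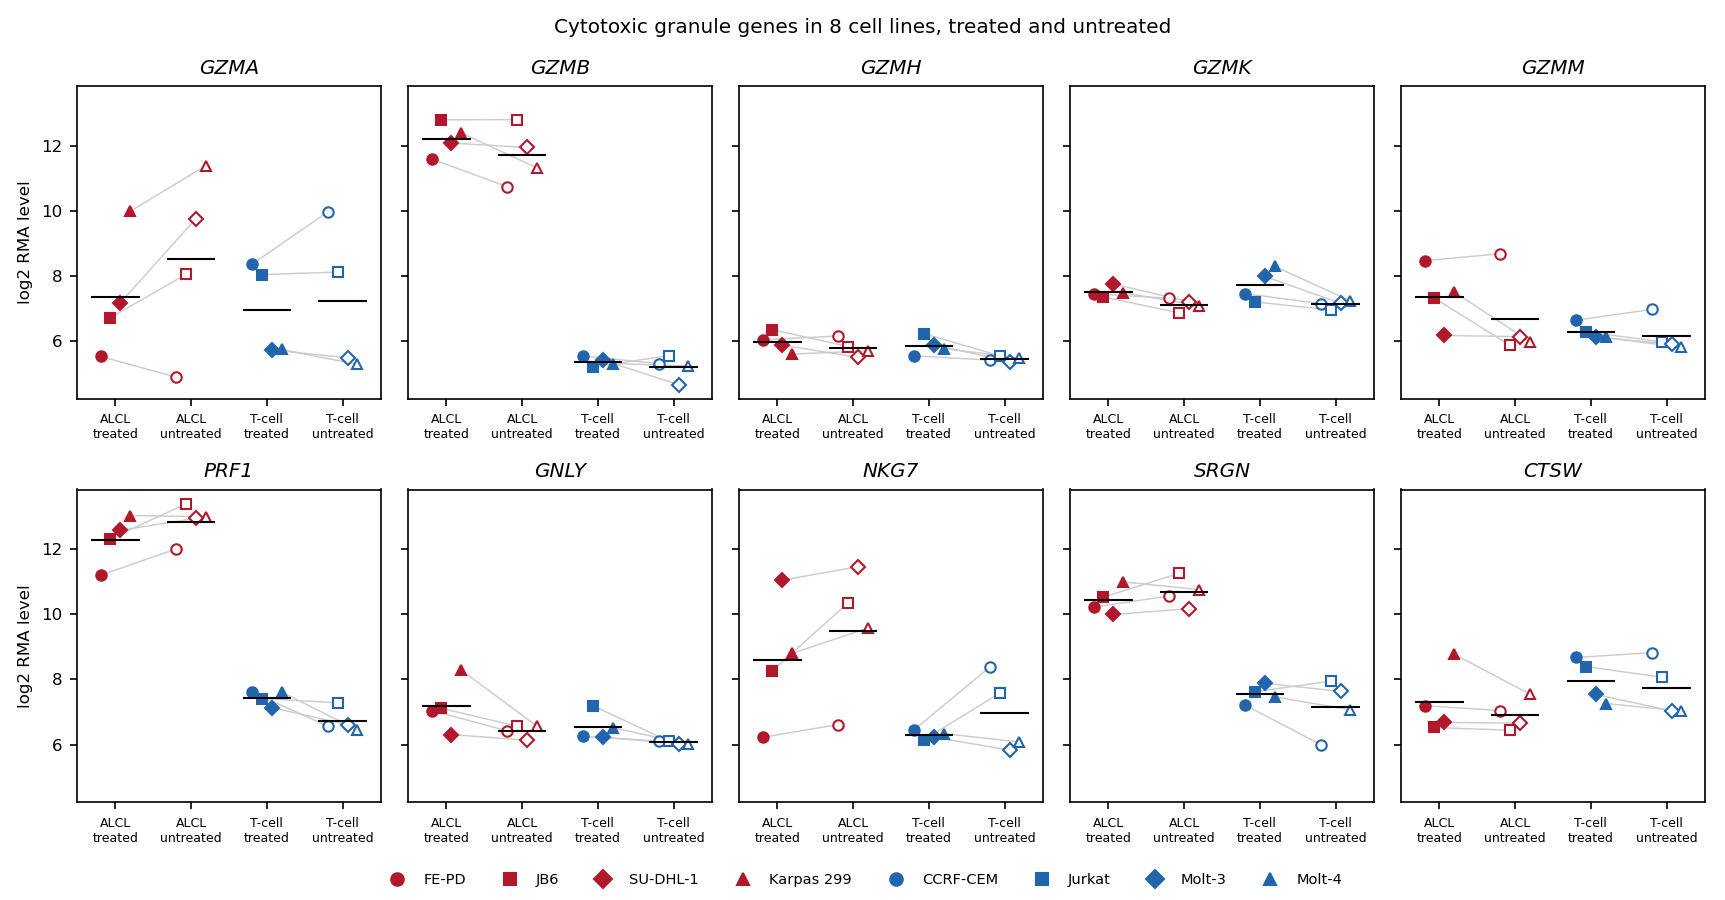
Log2 RMA level of each of the 10 members on each of the 16 arrays (y axis), by group (x axis). Filled symbols are treated and open symbols untreated arrays, red is ALCL and blue T-cell lines, grey lines join the 2 arrays of a line and black bars are group means. GZMB, PRF1 and SRGN separate the cell types before and after treatment, while GZMA and NKG7 spread within each type.

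After treatment PRF1, GZMB and SRGN were again called higher in ALCL lines, and 0 of 10 were lower. Over all genes, 1.35% were called higher in treated ALCL lines and 1.53% lower. GZMB had levels of 11.59, 12.80, 12.08 and 12.39 in the treated ALCL lines, in the order FE-PD, JB6, SU-DHL-1, Karpas 299, against 5.54, 5.20, 5.41 and 5.31 in the treated T-cell lines, in the order of the untreated values. The lines of each type lay close together and the types far apart. The difference was 6.85 ± 0.24 log2 units (adjusted p = 3.30e-06 by limma). Whether GZMB was above background in T-cell lines was not determined, so the size of its differences between types is that of the RMA values only.

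PRF1 had levels of 11.20, 12.33, 12.58 and 13.03 in treated ALCL lines against 7.61, 7.41, 7.13 and 7.61 in treated T-cell lines. The groups stayed apart by more than 3 log2 units. The difference was 4.84 ± 0.35 (adjusted p = 0.00024 by limma). SRGN differed by 2.89 ± 0.24, with levels of 10.22, 10.53, 10.00 and 11.00 in treated ALCL lines against 7.21, 7.62, 7.88 and 7.46 in treated T-cell lines. NKG7 read 6.22, 8.27, 11.05 and 8.80 in treated ALCL lines and between 6.15 and 6.45 in treated T-cell lines, and FE-PD again lay among the T-cell lines. Its difference of 2.30 ± 0.81 was not called (adjusted p = 0.191 by limma) and stayed uncalled in 16 of 18 alternatives. Leaving out FE-PD, again the lowest ALCL line, gave 3.08 with an adjusted p of 0.0281. GZMM differed by 1.08 ± 0.41 (adjusted p = 0.229) and stayed uncalled in 16 of 17 alternatives. The exception left out SU-DHL-1, the lowest treated ALCL line (1.48, adjusted p = 0.0428).

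**Figure D2:**
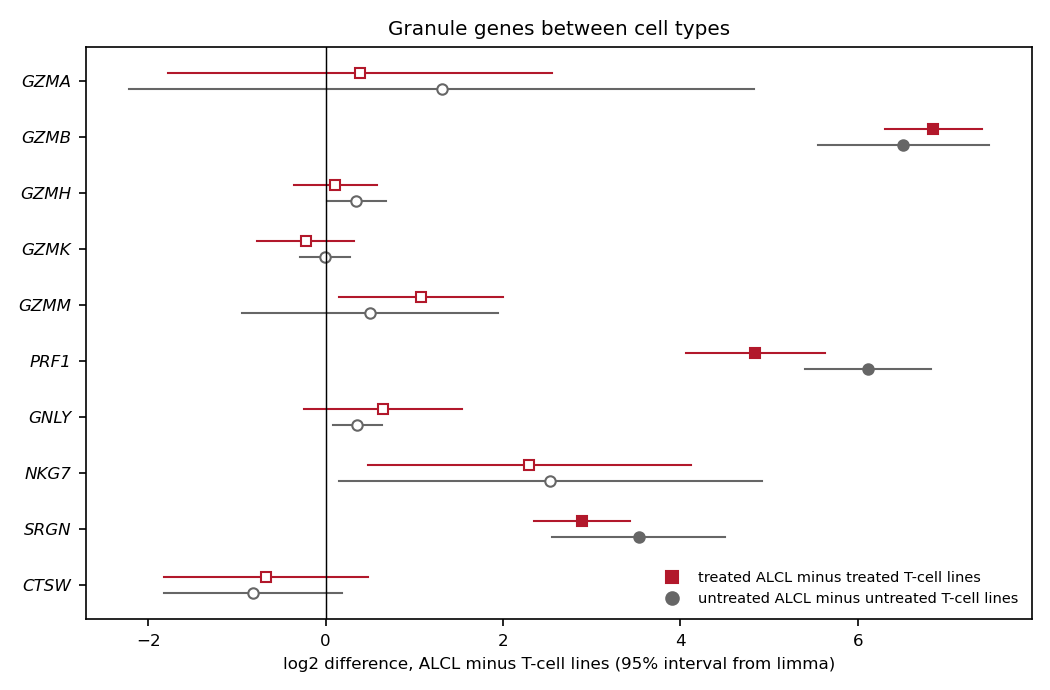
Log2 difference between ALCL and T-cell lines for each member (x axis, in log2 units), with red squares for treated and grey circles for untreated lines. Points are limma estimates over 4 and 4 arrays, bars their 95% intervals, and filled points have an adjusted p below 0.05. GZMB, PRF1 and SRGN are filled in both conditions.

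The title's question was put to the members by setting treated T-cell lines against untreated ALCL lines. Of the 10 members, 4 were lower in treated T-cell lines (GZMB, PRF1, NKG7 and SRGN) and 0 were higher, where 9.09% of all genes were lower and 8.82% higher. Treated T-cell lines lay below untreated ALCL lines for GZMB, with a difference of -6.34 ± 0.38 (5.37 ± 0.14 and 11.70 ± 0.88, SD, n = 4 each). For PRF1 the difference was -5.40 ± 0.28 and for SRGN -3.15 ± 0.24. The adjusted p values by limma were 4.58e-05, 3.91e-05 and 0.000142 for GZMB, PRF1 and SRGN. NKG7 differed by -3.21 ± 0.86 (adjusted p = 0.0334), a call lost on leaving out each line in turn except FE-PD, with adjusted p values between 0.0574 and 0.0894. GZMA was not called. In Karpas 299, CCRF-CEM and Jurkat alone, the lines without the 28S rise, its difference was -3.19. That setting holds 1 ALCL line, Karpas 299, which had the highest untreated GZMA level (11.39), so it does not describe the type. This comparison shares its untreated ALCL arrays with the first one, so their values are not independent. The members' median was -0.97, beside 0.09 over all genes.

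In T-cell lines PRF1 and GZMK rose on treatment, each by less than 1 log2 unit in the mean. These 2 of the 10 members rose and 0 fell, beside 21.7% of all genes that rose and 20.2% that fell. The members' share of rises was thus near that of all genes. The members' median change was 0.31, and that of all genes 0.14. PRF1 reached 7.61, 7.41, 7.13 and 7.61 in treated CCRF-CEM, Jurkat, Molt-3 and then Molt-4, against 6.56, 7.28, 6.61 and 6.45 untreated. Every line was higher after treatment, and Jurkat moved least, by 0.13. The mean change was 0.72 ± 0.21 (adjusted p = 0.0234 by limma). The PRF1 call was lost without CCRF-CEM (0.61, adjusted p = 0.0794), Molt-3 (0.78, 0.0593) or Molt-4 (0.57, 0.115), and without the block for cell line (0.125). In CCRF-CEM and Jurkat alone, the T-cell lines without the 28S rise, the change was 0.59 (adjusted p = 0.209).

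GZMK read 7.45, 7.20, 7.99 and 8.29 in treated T-cell lines, in the same order, against 7.15, 6.95, 7.16 and 7.23 untreated. All 4 lines were higher after treatment, and Molt-3 and Molt-4 moved most. The mean change was 0.61 ± 0.16 (adjusted p = 0.0131 by limma). It was 0.28 (adjusted p = 0.286) in the lines without the 28S rise, and the call was lost without Molt-3 (0.0704) or Molt-4 (0.0717). When arrays were centred on their hybridisation spikes, the median change of all genes became -0.54, that of GZMK -0.072 (adjusted p = 0.91) and that of PRF1 0.04 (adjusted p = 0.956), both above that median.

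GZMB was not among the members that rose in T-cell lines. Its changes were 0.23 in CCRF-CEM, -0.35 in Jurkat, 0.75 in Molt-3 and 0.07 in Molt-4, with a mean of 0.18 and a 95% interval from -0.30 to 0.66. That interval lies below the 6.52 log2 units that separated the untreated types. GZMH changed by 0.41 ± 0.15, with all 4 lines up, and just missed the threshold (adjusted p = 0.0531 by limma). GNLY was also up in all 4 lines, by between 0.15 and 1.09, with an adjusted p of 0.124.

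NKG7 and GZMA split the T-cell lines. NKG7 changed by -1.93 in CCRF-CEM and -1.43 in Jurkat but by 0.39 in Molt-3 and 0.26 in Molt-4. The lines with the higher untreated levels moved down, and after treatment all 4 stood between 6.15 and 6.45. The mean of -0.68 ± 0.40 was not called (adjusted p = 0.187) and stayed uncalled in 17 of 19 alternatives. In CCRF-CEM and Jurkat alone, the lines that fell, NKG7 fell by 1.68 (adjusted p = 0.0198). These lines also lacked the 28S rise. GZMA changed by -1.61 in CCRF-CEM, -0.07 in Jurkat, 0.24 in Molt-3 and 0.46 in Molt-4 (mean -0.25 ± 0.46, not called).

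In ALCL lines only GNLY passed the test. Of 10 members 1 rose and 0 fell, where 8.04% of all genes rose and 13.4% fell. The 1 rise is near the share of all genes. GNLY reached 7.05, 7.11, 6.31 and 8.29 in the treated lines, in the order FE-PD, JB6, SU-DHL-1, Karpas 299, against 6.42, 6.56, 6.13 and 6.57 untreated. All 4 lines were higher and Karpas 299 moved most, by 1.72. The mean change was 0.77 ± 0.24 (adjusted p = 0.045 by limma), and the call was lost in 15 of 18 alternatives, among them without FE-PD (0.0707), JB6 (0.0974) or Karpas 299 (0.146). In Karpas 299, the ALCL line without the 28S rise, the 1.72 had an adjusted p of 0.166, with 1 line assumed to vary like the others. The second GNLY probe set changed by 0.57, 0.39, 0.01 and 1.02 in the same lines.

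PRF1, SRGN and NKG7 had lower treated than untreated levels in at least 3 of 4 ALCL lines, and none of these changes was called. PRF1 changed by -0.81 in FE-PD, -1.07 in JB6, -0.37 in SU-DHL-1 and 0.03 in Karpas 299, a mean of -0.56 ± 0.21 (adjusted p = 0.0899 by limma). It stayed uncalled in 16 of 19 alternatives. Without Karpas 299, the only line that did not fall, the change was -0.75 (adjusted p = 0.0443), in the 3 ALCL lines that carried the 28S rise. NKG7 changed by -0.39, -2.09, -0.41 and -0.78 in the same order, a mean of -0.92 ± 0.40 (adjusted p = 0.13). SRGN changed by -0.34, -0.73, -0.18 and 0.24 (adjusted p = 0.433), and its second probe set by 0.13, -0.46, 0.06 and -0.12, so the probe sets differ in sign in 3 lines.

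GZMA showed the widest changes among the granzymes. It reached 5.53, 6.72, 7.17 and 9.99 in treated ALCL lines against 4.89, 8.05, 9.76 and 11.39 untreated. The 3 lines with high untreated levels were 2.52-fold, 6.02-fold and 2.64-fold lower after treatment, and FE-PD, the low line, was 1.55-fold higher. The mean change of -1.17 ± 0.46 was not called (adjusted p = 0.0948 by limma) and stayed uncalled in 17 of 19 alternatives. Leaving out FE-PD, the only line that rose, gave -1.77 with an adjusted p of 0.0142. GZMB changed by 0.86, -0.01, 0.14 and 1.07 (adjusted p = 0.116), and this change was called when arrays were quantile normalized (0.72, adjusted p = 0.0418) or scaled to one median and spread (1.03, adjusted p = 0.00197). GZMM changed by 1.45 in JB6 and 1.53 in Karpas 299 but by -0.21 in FE-PD and 0.04 in SU-DHL-1, with an adjusted p of 0.105.

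**Figure D3:**
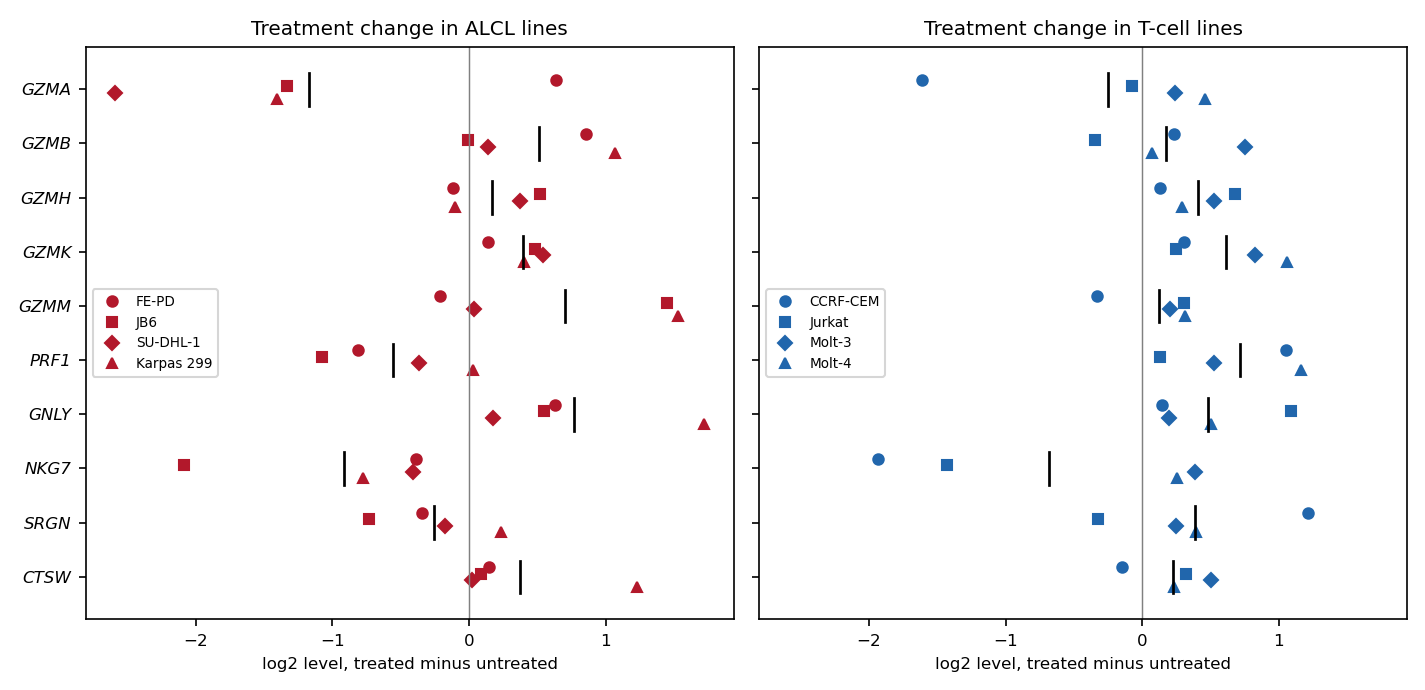
Change of each member on treatment in each line, as treated minus untreated log2 level (x axis), for ALCL lines (left, red) and T-cell lines (right, blue). Symbols are lines and black bars the mean of 4 lines. GZMA and NKG7 have the widest spread, and all 4 T-cell lines lie above 0 for PRF1 and GZMK.

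Whether treatment acted differently on the 2 types was tested as an interaction. It called 0 of 10 members by limma, where 1.11% of all genes were called higher and 0.568% lower. Of the members 1, PRF1, had an unadjusted p below 0.05, beside 1551 of the 11963 genes tested. The change of PRF1 in ALCL lines minus that in T-cell lines was -1.27 ± 0.30 (adjusted p = 0.0778 by limma). The changes of the types did not overlap, since the highest ALCL change was 0.03 and the lowest T-cell change 0.13. How many of all genes separate in this way was not computed. Scaling arrays to one median and spread gave 1 call, for GZMB (1.23, adjusted p = 0.0273).

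Line by line, the members did not move as one block. In Molt-3 and in Molt-4 all 10 members were up, with medians of 0.45 and 0.35 beside all-gene medians of 0.15 and 0.17. The share of all genes that were up was not computed. Both lines carried the 28S rise. The SD of all values on an array was 1.921 untreated and 1.696 treated in Molt-3, and 1.895 and 1.597 in Molt-4. With arrays scaled to a common median and spread, the members' median change in T-cell lines was 0.157, beside -0.017 over all genes (0.306 and 0.142 as reported). The part of this spread in the members' changes was not tested. In FE-PD 5 were up and 5 down, none by 2-fold. Karpas 299 had 4 members at least 2-fold up (GNLY, GZMM, CTSW and GZMB) and 1 down (GZMA), where 2.94% of its genes were 2-fold up and 4.24% down. JB6 had 1 up (GZMM) and 3 down (NKG7, GZMA and PRF1), where 6.85% of its genes were up and 13.8% down. SU-DHL-1 had 1 down (GZMA) and 0 up, where 10.2% of its genes were down. CCRF-CEM had 2 up (PRF1 and SRGN) and 2 down (GZMA and NKG7), where 3.91% of its genes were up and 7.38% down. Molt-4 had 2 up (GZMK and PRF1) and 0 down, where 5.43% were up and 14.8% down. Jurkat had 1 up (GNLY) and 1 down (NKG7), where 3.69% were up and 9.14% down. In Molt-3 no member reached 2-fold. These are single pairs of arrays with no replicate.

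NK-cell markers were examined as those of another cytotoxic cell. Of 14 measured, 0 were called between untreated ALCL and untreated T-cell lines by limma (median 0.15), with 3 at an unadjusted p below 0.05, where 2989 of the 11963 genes had such a p and 3.18% were called higher. Between treated types 0 were called, with 0 unadjusted, where 1.35% of all genes were called higher. Their mean level per array ran from 6.11 to 6.40 in untreated ALCL lines and from 5.97 to 6.27 in untreated T-cell lines. In treated T-cell lines it ran from 6.30 to 6.80, and 5 of the 14 rose there (KLRB1, KLRD1, NCAM1, NCR1 and NCR3, by between 0.51 and 0.81), beside 21.7% of all genes. The KLRD1 call held in 10 of 18 alternatives. Under spike centring KLRD1, NCAM1 and NCR1 turned to -0.17, -0.16 and -0.17, still above the median of all genes. No RMA value is 0, so no marker can be called absent, and the part of these markers in the PRF1 and GZMK changes was not tested. Of the 3 CD8 T-cell markers 0 were called between untreated types (0 unadjusted) or on treatment in T-cell lines (0 unadjusted) or in ALCL lines (1 unadjusted), and of 10 myeloid markers CSF1R alone was higher in untreated ALCL lines (2.39 ± 0.27). Mast-cell and B-cell markers gave 0 calls of 4 and 0 of 5 between untreated types, with 1 unadjusted each. In treated T-cell lines 2 rose in each list (CPA3 and KIT, BLNK and MS4A1). In ALCL lines 1 of the 4 mast-cell markers rose, KIT, by 0.55 ± 0.17. Of the 10 myeloid markers 2 rose there, S100A8 by 1.27 ± 0.34 and S100A9 by 2.13 ± 0.34, and 8 were not called. Of the 5 B-cell markers 0 were called, where 8.04% of all genes rose in ALCL lines.

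Markers of the lines' own types were examined in the same way. Of 8 T-cell markers 6 fell in T-cell lines (median -1.94), where 20.2% of all genes fell. The kinase LCK fell by 3.38 ± 0.22 and CD3D, another chain of the receptor complex, by 2.94 ± 0.27. In ALCL lines TNFRSF8 fell by 3.25 ± 0.32 and ALK by 0.76 ± 0.22. Of the T-cell markers CD247 fell there, by 1.43. In T-cell lines ALK rose by 0.61, and TNFRSF8 was not called. The part of these changes in the members' values was not tested.

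Genes for the maturation and release of granules split in both directions. Of 18 measured, 3 were higher and 2 lower in untreated ALCL lines (median 0.15), where 3.18% of all genes were higher and 5.58% lower. CST7, which encodes cystatin F, an inhibitor of granule cathepsins, was higher by 2.39 ± 0.57. STX11, a syntaxin needed for granule fusion, was higher by 2.41 ± 0.37 and the granule membrane protein CD63 by 1.78 ± 0.37, while the chaperone CALR was lower by 0.83 ± 0.19. The CST7 call was lost in 8 of 18 alternatives, that of CALR in 12 and that of CD63 in 6 (adjusted p up to 0.368), and that of STX11 in 2 of 17.

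On treatment 2 of the 18 rose and 3 fell in T-cell lines, where 21.7% of all genes rose and 20.2% fell. In ALCL lines 3 rose and 4 fell, where 8.04% rose and 13.4% fell. STXBP2, the partner of STX11, fell by 0.72 ± 0.12 in T-cell lines and by 0.99 ± 0.12 in ALCL lines. LYST, which shapes lysosome-related organelles, rose by 0.83 ± 0.12 in T-cell lines and by 0.89 ± 0.12 in ALCL lines. CTSC, the peptidase that activates progranzymes, fell by 1.62 ± 0.32 in T-cell lines. STX11 fell by 1.67 ± 0.20 in ALCL lines. The difference of its change between types was called (-1.45 ± 0.28, adjusted p = 0.0336 by limma), a call lost in 13 of 17 alternatives with adjusted p values up to 0.961.

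Among the inhibitors of granule proteases, SERPINB9 rose on treatment in both cell types. It encodes the intracellular inhibitor of granzyme B and averaged 9.34 ± 1.32 in treated and 6.71 ± 1.01 in untreated T-cell lines, and 8.61 ± 1.28 in treated and 6.69 ± 1.54 in untreated ALCL lines (SD, n = 4 each). It rose by 2.62 ± 0.27 in T-cell lines and by 1.92 ± 0.27 in ALCL lines (adjusted p = 0.000178 and 0.00122 by limma). It was not called between untreated types. SERPINA1 and SERPINB1, inhibitors of neutrophil-type proteases, were higher in untreated ALCL lines by 6.26 ± 0.33 and 4.72 ± 0.71, and SERPINB8 by 0.87 ± 0.21, a call lost in 9 of 18 alternatives. Of 6 measured inhibitors these 3 were higher and 0 lower, where 3.18% of all genes were called higher and 5.58% lower.

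Among 18 measured regulators of cytotoxic and activated lymphocytes, 8 were higher and 0 lower in untreated ALCL lines (median 1.11). Over all genes, 3.18% were called higher and 5.58% lower. The transcription factors IRF4 and JUNB were higher by 4.86 ± 0.26 and 3.49 ± 0.17, and the interleukin-2 receptor chains IL2RA and IL2RB by 4.78 ± 0.33 and 4.50 ± 0.34. ID2, an inhibitor of helix-loop-helix factors, was among the 8, and its call was lost in 10 of 18 alternatives. The transcription factors TBX21 and RUNX3 were measured but not called between untreated types, and EOMES was not measured. RUNX3 gained a call in 7 of 18 alternatives. In T-cell lines 5 rose and 3 fell, where 21.7% of all genes rose and 20.2% fell. ID2 rose by 4.11 ± 0.66, RUNX3 by 0.90 ± 0.17, STAT4 by 0.98 ± 0.18 and IL2RB by 0.88 ± 0.25, while STAT5B fell by 1.71 ± 0.16. The IL2RB call in T-cell lines was lost in 6 of 19 alternatives, with changes down to 0.20 and adjusted p values up to 0.747. In ALCL lines 2 rose and 6 fell, where 8.04% of all genes rose and 13.4% fell. Among those that fell were IL2RA, by 3.08 ± 0.31, and IL2RB, by 1.37 ± 0.25. The IL2RA and IL2RB changes differed between types by -3.66 ± 0.44 and -2.25 ± 0.35 (adjusted p = 0.00341 and 0.0127 by limma), and that of IL2RB was lost in 5 of 18 alternatives.

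Known substrates of granzymes fell in both cell types. Of 11 measured, 9 fell and 0 rose in T-cell lines (median -1.31) and 9 fell and 0 rose in ALCL lines (median -1.13), beside the 20.2% and 13.4% of all genes given above. LMNB1, a nuclear lamin, fell by 2.02 ± 0.27 in T-cell lines and by 2.48 ± 0.27 in ALCL lines. APEX1, a DNA repair enzyme of the complex that granzyme A attacks, fell by 1.47 ± 0.16 and by 1.13 ± 0.16. HMGB2, of the same complex, fell by 1.24 ± 0.28 in T-cell lines and by 2.79 ± 0.28 in ALCL lines. BID, which carries the granzyme B signal to mitochondria, fell by 3.08 ± 0.38 in T-cell lines.

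**Figure D4:**
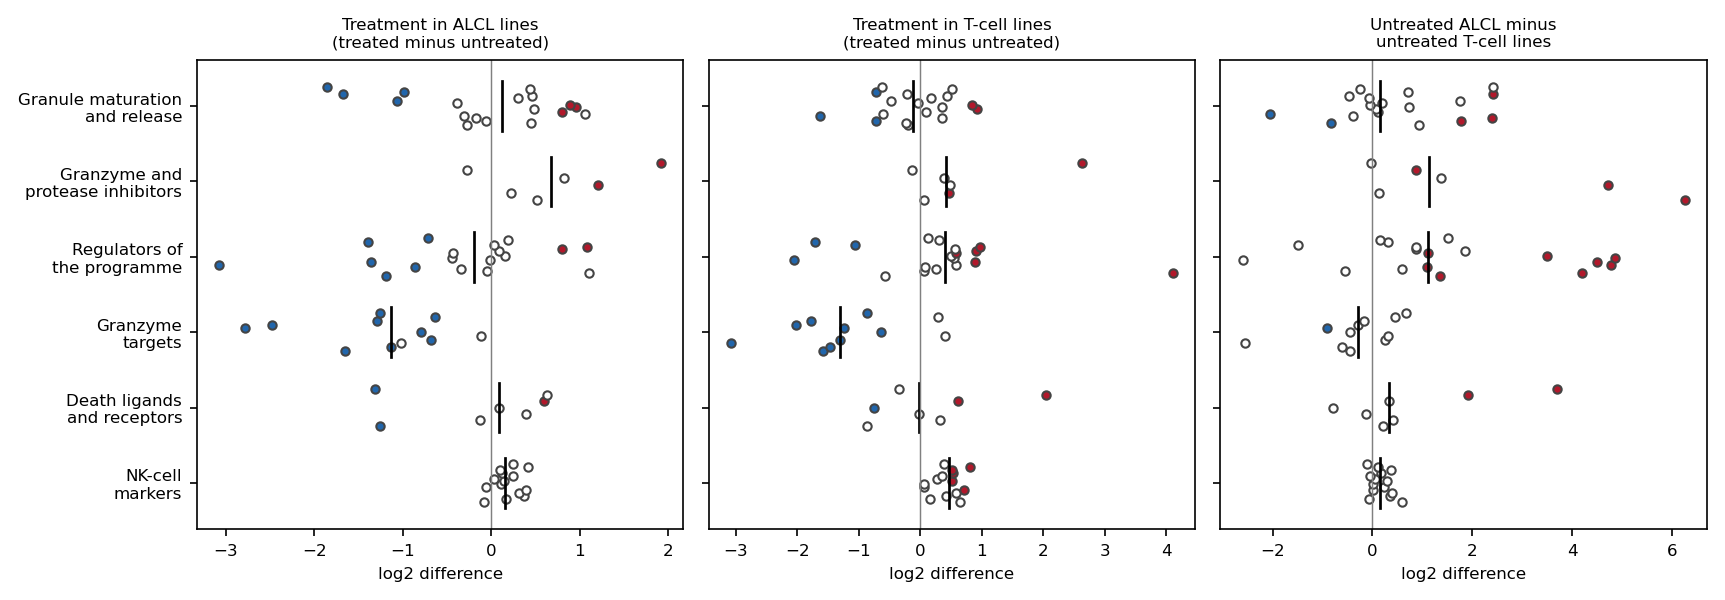
Log2 differences (x axis) of the genes of 6 lists around the granule (rows), for treatment in ALCL lines, treatment in T-cell lines and untreated ALCL minus untreated T-cell lines. Each point is a gene, red points were called higher and blue points lower at an adjusted p below 0.05, open points were not called and black bars are list medians. The substrates lie mostly below 0 on treatment, and no NK-cell marker is filled between untreated types.

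Over the 16 arrays PRF1 and GZMB had a Pearson r of 0.982 with each other, and SRGN had 0.963 with PRF1 and 0.951 with GZMB. The arrays fall into separate groups by cell type, and each line gives 2 arrays, so these values describe the contrast between types and carry no test. Among genes outside the members, GZMB was most like SERPINA1 (0.98), IL1R2, a decoy receptor for interleukin-1 (0.974), and CEBPD, a leucine-zipper factor (0.97). PRF1 was most like IL1R2 (0.98), IRF4 (0.977) and SERPINA1 (0.975), and SRGN most like MVP (0.959), IL1R2 (0.957) and IRF4 (0.955). GZMA had other neighbours, RTL8A (0.862), NR3C1, the glucocorticoid receptor (0.854), and ACTN1, an actinin (0.849). Over the 8 untreated arrays alone r for GZMB and SERPINA1 was 0.97, for PRF1 and IL1R2 0.993, for SRGN and MVP 0.957 and for GZMA and RTL8A 0.871.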

How the data were processed

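Per the submitters' processing notes, the authors used RMA and R 2.10.1 to make the deposited log2 expression levels. The sources used here do not say whether all arrays were normalized as 1 set or filtered. Of the 22283 probe sets, 19065 had 1 symbol in the platform annotation, and these gave 11963 genes. For a gene with several probe sets the one with the highest mean was used. RefSeq's table held 11955 of these symbols. The test was limma 3.58.1 (two-sided, lmFit with eBayes) in R 4.3.3, with Benjamini-Hochberg adjustment over all genes and an adjusted p below 0.05 as the call. The value after ± beside a difference is its standard error. Treatment effects and their difference were estimated in 1 model over the 16 arrays, in which cell line was a block. Comparisons between types used 8 arrays. A line's 2 arrays deviated together from their group means (r between 0.33 and 0.643), and the labels name the line. With untreated arrays of other lines of its type, Molt-3 reached 0.399, close to its own 0.413. The other lines reached at most 0.104. Named genes outside the members were up to 4 per list with the smallest adjusted p, and the 3 most like a member. The regulators TBX21 and EOMES were named outside that rule. The members and all lists were chosen with earlier results of these data known. The code was tested on simulated data. The number of arrays limits the precision.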

Additional observations from a re-analysis of the deposited data

Results flagged for a closer look

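GZMM had 1 line far above the others of its group in both untreated types. Untreated FE-PD stood at a log2 level of 8.68, where the other untreated ALCL lines lay between 5.87 and 6.13. Untreated CCRF-CEM stood at 6.97, where the other untreated T-cell lines lay between 5.80 and 5.98. Dixon's ratio, the gap to the nearest line over the whole range, was 0.905 and 0.851, above the 95% critical value for 4 samples. These were 2 of 40 member and group combinations, and chance flags about 1 in 20.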

How the results depend on the processing

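The 60 results on single members (10 members in 6 comparisons) were recomputed under 20 alternatives, and 1017 of 1082 values kept their side of the threshold (65 of them uncalled values that changed sign), 33 lost a call, 31 gained one and 1 reversed. GZMB and PRF1 were called in every alternative between untreated types and between treated types. Centring on hybridisation spikes gave 5 calls between untreated types, 1 (lower, NKG7) for treatment in T-cell lines and 3 (lower) in ALCL lines. It moved the median of all genes to 0.38 between untreated types (0.04 as reported), -0.54 for treatment in T-cell lines (0.14) and -0.52 in ALCL lines (0.09), and the share of calls that were higher to 75%, 2.1% and 3.57% (36.3%, 51.8% and 37.5%). The same share moved to 92.8% between treated types (47% as reported), 1.72% in treated T-cell against untreated ALCL lines (49.2%) and 76.6% for the interaction (66.2%). Under it GZMK turned to -0.072 in T-cell lines, CALR to -0.42, LYST to -0.14 and NCR3 to -0.34 in treated T-cell against untreated ALCL lines, and SERPINA3 to -0.22, NCAM1 to -0.16, NCR1 to -0.17 and KLRD1 to -0.17 in treated T-cell lines. In T-cell lines treatment gave 1 call (lower) in lines without the 28S rise, 1 with no replicate block, and 0 to 3 when a line was left out, with 0 without Molt-3 or without Molt-4. In ALCL lines it gave 0 calls with each probe set tested by itself, with probe sets averaged per gene, with the lowest 40% of genes left out (7 members tested), with the lines without the 28S rise, with no replicate block or with 1 cell type alone, and 0 to 2 when a line was left out. The interaction gave 1 call with scaling to one median and spread. Over all genes, the calls ran from 111 to 1293 between untreated types (1048 as reported), 98 to 585 between treated types (345), 354 to 2830 in treated T-cell against untreated ALCL lines (2143), 1496 to 5493 and 6 to 2648 for treatment in T-cell and ALCL lines (5018 and 2566), and 0 to 234 for the interaction (201). Fewer lines or genes were tested in the left-out settings, and the cause of the other moves was not tested.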

Other observations

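Cytotoxic cells also kill through death ligands, and these genes moved in both directions. Of 7 measured death ligands and receptors, 2 were higher in untreated ALCL than in untreated T-cell lines and 0 lower. Over all genes, 3.18% were called higher and 5.58% lower. TNFSF10, which encodes TRAIL, was higher by 3.71 ± 0.86 (adjusted p = 0.0359 by limma, lost in 9 of 18 alternatives) and TNFRSF10B, one of its receptors, by 1.93 ± 0.35. In T-cell lines TNFRSF10B rose by 2.04 ± 0.23, with means of 8.92 ± 0.96 in treated and 6.88 ± 0.51 in untreated lines (SD, n = 4 each). In ALCL lines TNFSF10 fell by 1.31 ± 0.39 (adjusted p = 0.0374, lost in 9 of 19 alternatives). A further list held 6 genes chosen as cluster neighbours of granzyme genes (AZU1, CFD, CMA1, CTSG, ELANE and PRTN3). Of these only CTSG lies directly beside a granzyme gene, GZMH. CDC20B and ESM1, beside GZMA and GZMK, were not in the list. Nor were STXBP6, beside GZMB, or CDC34 and BSG, beside GZMM. Between untreated types 0 of the 6 were called by limma (0 at an unadjusted p below 0.05), beside the all-gene shares given above. CFD, complement factor D, rose in both types, by 1.06 ± 0.17 in T-cell lines and by 0.73 ± 0.17 in ALCL lines.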
